A study of Saccharomyces cerevisiae with 3 samples.

Results

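The genes TCP1 and CCT2 to CCT8 encode the 8 subunits of the CCT chaperonin of Saccharomyces cerevisiae. They were taken as the probes that the platform annotation names with these symbols, which gave 16 probes for 8 of the 5325 genes named on the array. Each gene had 1 lower-numbered and 1 higher-numbered probe, and the numbers of a pair differed by 10971 in all 8 genes, as in 4439 genes of the array. Strains of a variomics library carry sequence variants of 1 gene and DNA tags that mark the strain, so a probe value reports the amount of a tag and not of an mRNA.

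CCT, also called TRiC, is a double ring in which each ring holds every subunit once, and it folds actin, tubulins and cell cycle proteins in an ATP-driven cycle inside its cavity. The subunits are paralogs, and each is essential for growth of yeast. In textbook accounts the ring has an arc of higher ATP affinity, formed by TCP1 (also CCT1), CCT2, CCT4 and CCT5, and an arc of lower affinity, formed by CCT3, CCT6, CCT7 and CCT8. Prefoldin hands unfolded actin and tubulin to the ring, and the phosducin-like protein Plp2 assists its cycle.

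The 3 groups were 1 array each for cycloheximide, which blocks translation elongation, rapamycin, which inhibits the TOR kinase with the prolyl isomerase Fpr1, and tunicamycin, which inhibits the first step of N-glycan synthesis. Per the labels, all 3 used the pool of essential genes, with cells sporulated and grown under selection. Drug-selected DNA carried Cy5, and untreated DNA of the same pool carried Cy3 on the same array. The sample descriptions add 30 ng for cycloheximide, 20 ng and the word single for rapamycin, and 3 in an unclear unit and pool for tunicamycin. No source used here says what these amounts refer to, and no dose is read from them. Drug and array cannot be told apart, because no drug has a replicate.

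Values are deposited log2 ratios minus the array median, so that 0 is the typical spot of the array. The ratio is likely drug-selected over untreated, from the dyes in the labels, and a negative value then means a lower share of that tag after selection. Measured probes were averaged per gene, and each mean is given with the SD between these probes and their number n. The probes mark the same strains and are not replicates of a condition. The spread unit of an array is the scaled median absolute deviation of its gene values, and it came to 0.924 for cycloheximide, 1.06 for rapamycin and 0.914 for tunicamycin. To be called depleted, a gene needed at least 2 measured probes, a value at least 3 units below 0 and each probe at least 2 units below 0. The limit of 3 units lay 2.77, 3.17 and 2.74 below the array median. These are rules of size, and no p-value was computed. Most yeast genes are dispensable and not part of an essential-gene pool, so many spots may mark strains that the pool lacked. The 0 point, spread unit, fold values and ranks are therefore relative to all genes or spots, not to typical pool strains. Between 18680 and 19558 of 22575 spots held a measured value.

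The tags of TCP1, CCT2, CCT4 and CCT7 lay far below the array median wherever they were measured. CCT5 and CCT6 each had 1 probe that was low and 1 that was much less so, and the tags of CCT3 and CCT8 stayed near the median or above it except for 1 CCT3 probe. Under cycloheximide 4 of the 7 subunit genes with 2 measured probes were depleted, TCP1, CCT2, CCT4 and CCT7, beside 15.2% of all 4121 genes so tested. Under tunicamycin it was 3 of 6, CCT2, CCT4 and CCT7, beside 13.6% of 4169 genes. Under rapamycin only 4 subunit genes had 2 measured probes, and 1 of them, CCT7, was depleted, beside 6.45% of 4015 genes. When 1 measured probe sufficed, the counts were 4 of 8, 3 of 7 and 4 of 8 for cycloheximide, rapamycin and tunicamycin, beside 12.8%, 11.7% and 12.5% of all genes. No subunit gene was enriched, and the same rule above 0 called 0.0485%, 0.0747% and 0.12% of all genes. These shares cover all named genes, and most yeast genes are dispensable for growth and not part of an essential-gene pool. The median over the subunit genes with a measured probe was -3.18 over 8 genes on the cycloheximide array, -4.11 over 7 genes on the rapamycin array and -4.29 over 8 genes on the tunicamycin array, where the median of all genes was -0.04, -0.21 and -0.09. The rapamycin median is the value of CCT6, whose probes stood at 0.04 and -8.25, and over the 4 genes with 2 measured probes it was -2.37.

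**Figure D1:**
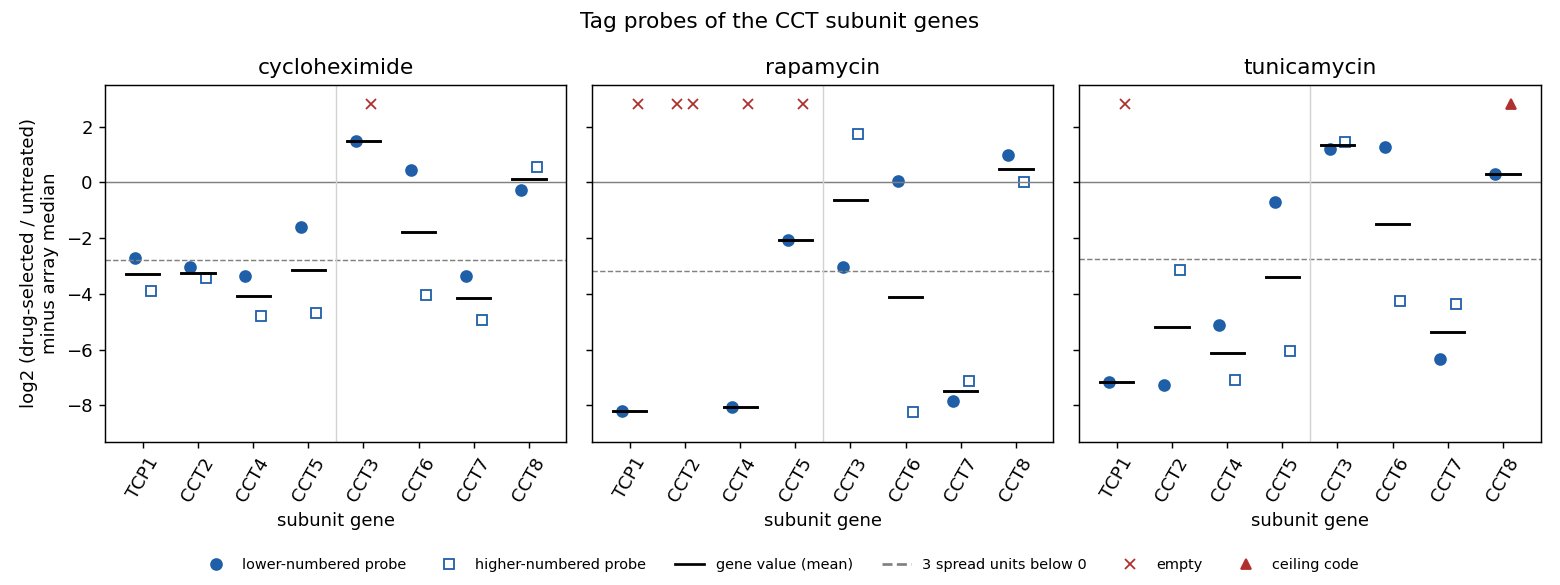
Log2 ratio minus the array median (vertical axis) of both tag probes of each subunit gene on the cycloheximide, rapamycin and tunicamycin arrays, with the gene value as a bar, the higher-affinity arc left of the thin line and the lower-affinity arc right of it. Empty spots and the spot with the ceiling code are marked above the data and carry no value. CCT4 and CCT7 lie below the dashed line of 3 spread units in every measured probe, CCT8 stays between -0.26 and 1, and the lower-numbered probe of CCT6 stays at or above 0 while its partner lies between -4.02 and -8.25.

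In the arc of higher ATP affinity, CCT4 (YDL143W, the delta subunit) had probe values of -3.34 and -4.80 under cycloheximide and -5.12 and -7.09 under tunicamycin. Its only measured probe under rapamycin stood at -8.04. Every measured CCT4 probe was more than 3 units low, and the gene values were -4.07 ± 1.03 (SD, n = 2), -8.04 (n = 1) and -6.11 ± 1.39 (n = 2) for cycloheximide, rapamycin and tunicamycin. These are 16.8-fold, 263-fold and 68.8-fold lower than the array median. Only 3.51%, 3.21% and 3.86% of measured genes had a value as low or lower.

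TCP1 (YDR212W, the alpha subunit and the first described) stood at -2.71 and -3.88 under cycloheximide. Its lower-numbered probe read -8.21 under rapamycin and -7.16 under tunicamycin, where the other probe was empty. The cycloheximide gene value was -3.30 ± 0.83 (n = 2), and the other arrays allow no call for TCP1 under the rule of at least 2 probes. In rank TCP1 was the lowest of the subunit genes on the rapamycin and tunicamycin arrays, in each case from 1 probe.

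CCT2 (YIL142W, the beta subunit) had -3.02 and -3.44 under cycloheximide, the narrowest pair of a depleted subunit gene on that array, and -7.27 and -3.13 under tunicamycin. Both its spots were empty under rapamycin, so CCT2 has no value there. The gene values were -3.23 ± 0.30 (n = 2) and -5.20 ± 2.93 (n = 2). CCT2 passed the rule on both arrays that measured it, although its tunicamycin probes differed by 4.14.

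CCT5 (YJR064W, the epsilon subunit) was not called on any array. Its probes stood at -1.58 and -4.68 under cycloheximide and at -0.71 and -6.05 under tunicamycin, and its single measured probe under rapamycin at -2.08. The lower-numbered probe was the shallower of the pair both times. The means of -3.13 ± 2.18 and -3.38 ± 3.78 (n = 2 each) were more than 3 units low, but the shallower probe missed the limit of 2 units.

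In the arc of lower affinity, CCT7 (YJL111W, the eta subunit) was the one subunit gene called on all 3 arrays. Its probes read -3.34 and -4.93 under cycloheximide, -7.84 and -7.11 under rapamycin and -6.34 and -4.37 under tunicamycin. The gene values were -4.14 ± 1.12, -7.48 ± 0.52 and -5.35 ± 1.39 (n = 2 each), or 17.6-fold, 178-fold and 40.9-fold below the array median. The share of genes with a value as low or lower was 2.91%, 4.89% and 6.92%.

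CCT6 (YDR188W, the zeta subunit) gave opposite readings in its paired probes on each array. The lower-numbered probe stood at 0.43, 0.04 and 1.29 under cycloheximide, rapamycin and tunicamycin, and the higher-numbered one at -4.02, -8.25 and -4.26. The means of -1.80 ± 3.15, -4.11 ± 5.87 and -1.48 ± 3.92 (n = 2 each) lie in a range where neither probe read, and CCT6 was not called. Of the genes with 2 probes of which at least 1 lay 3 units low, the other probe lay no more than 1 unit below 0 in 15.9% of 838 genes on the cycloheximide array, 38.6% of 516 on the rapamycin array and 21.0% of 782 on the tunicamycin array. Of 214 genes with both probes measured on all 3 arrays and 1 of them at least 3 units low each time, 29 showed such a split with the same probe low throughout, and CCT6 was among the 11 whose low probe was the higher-numbered one. What separates the probes of CCT6 was not tested.

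CCT3 (YJL014W, the gamma subunit) was above the array median in 4 of its 5 measured probes. It had 1.47 in its only measured probe under cycloheximide, 1.20 and 1.46 under tunicamycin, and -3.02 and 1.74 under rapamycin. Its gene values were 1.47 (n = 1), -0.64 ± 3.37 (n = 2) and 1.33 ± 0.19 (n = 2) for cycloheximide, rapamycin and tunicamycin. Of all measured genes, 96.2% under cycloheximide and 95.2% under tunicamycin had a value at or below that of CCT3. It was not called enriched, since 1.33 is 1.45 units and the rule needs 3.

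CCT8 (YJL008C, the theta subunit) lay close to the array median in every measured probe. These were -0.26 and 0.54 under cycloheximide, 1 and 0 on the same log2 scale under rapamycin, and 0.29 in the lower-numbered probe under tunicamycin, where the other spot held the ceiling code 16.61. The gene values were 0.14 ± 0.57 (n = 2), 0.50 ± 0.71 (n = 2) and 0.29 (n = 1). All of them were within 1 spread unit of 0. The sources used here do not state whether the pool held CCT3 or CCT8 strains, and this was not tested.

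Probe values near the array median often sat on a coarse grid. Of the 13 subunit probe readings that lay no more than 1 unit below 0, 11 were, as deposited, exactly what a quotient of integers no greater than 10 gives on the log2 scale when rounded to 3 decimals, among them all 5 measured CCT8 readings and 4 of CCT3. Of all spots in that range, 74.6%, 49.6% and 69.7% did so on the cycloheximide, rapamycin and tunicamycin arrays. Integers no greater than 10 cannot give a reading that is 3 units low, so low readings could not meet this condition. No contrast with them is drawn. The channel signals were not analysed here, so the brightness behind these readings is unknown.

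The arcs can be set side by side without a test. Under cycloheximide the 4 genes of the higher-affinity arc ranged from -4.07 to -3.13, and those of the lower-affinity arc from -4.14 to 1.47. Under tunicamycin the ranges were -7.16 to -3.38 and -5.35 to 1.33. Under rapamycin they were -8.21 to -2.08 over 3 genes and -7.48 to 0.50 over 4 genes. The arcs overlapped on all 3 arrays, as CCT7 was as low as genes of the other arc. Under rapamycin CCT6 at -4.11 also lay below CCT5 at -2.08. CCT3 and CCT8 lay above the higher-affinity arc on every array.

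The arrays differed in how deep the low tags reached and in how many were measured. CCT4 and CCT7 were lowest under rapamycin, then tunicamycin, then cycloheximide, and so was TCP1, whose rapamycin and tunicamycin values rest on 1 probe. In spread units the CCT7 values are -4.48, -7.09 and -5.86 for cycloheximide, rapamycin and tunicamycin, and those of CCT4 are -4.40, -7.62 and -6.68. TCP1 has -3.57, -7.78 and -7.83 in these units, so its order between rapamycin and tunicamycin turns with the scale. For CCT7 the order of cycloheximide and tunicamycin also turned, with -5.36 and -5.01 after quantile normalization and -4.93 and -4.37 in the higher-numbered probe alone, while rapamycin stayed lowest. CCT5 can be followed across all arrays only in its lower-numbered probe, which read -1.58, -2.08 and -0.71 under cycloheximide, rapamycin and tunicamycin. The depth of an array bounds such readings. The lowest measured spot lay at -7.48, -8.67 and -9.11 relative to the median under cycloheximide, rapamycin and tunicamycin, so the rapamycin readings of TCP1, CCT4 and CCT6 between -8.04 and -8.25 are close to the lower edge of that array. No difference between drugs was tested.

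Missing values of the subunit genes fell mostly on the rapamycin array. Over all spots, that array had the fewest empty ones, 2821, against 3156 under cycloheximide and 2951 under tunicamycin. Of the 16 subunit spots, 5 were empty under rapamycin, 1 under cycloheximide and 1 under tunicamycin. Of the 8 subunit probes that lay at least 3 units low under both cycloheximide and tunicamycin, 4 were empty under rapamycin (CCT2 in both probes, and the higher-numbered probes of CCT4 and CCT5). Over all named probes, 52.9% of 1158 such probes were empty under rapamycin, against 8.40% of 8615 probes that lay no more than 1 unit below 0 on both other arrays. All of these probes had to be measured under cycloheximide and tunicamycin, and the matching shares for those arrays were not computed. The low count of callable subunit genes under rapamycin thus stands beside a general loss of spots for tags that were low elsewhere. The cause of the empty spots was not tested.

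The higher-numbered probe was the lower reading in 6 of 7 subunit pairs on the cycloheximide array, 2 of 4 on the rapamycin array and 3 of 6 on the tunicamycin array. Among all pairs with both probes at least 2 units low it was lower in 598 of 654, 127 of 273 and 215 of 584, with median differences of -1.46, 0.07 and 0.54. An SD between probes under cycloheximide therefore contains this offset as well as scatter.

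**Figure D2:**
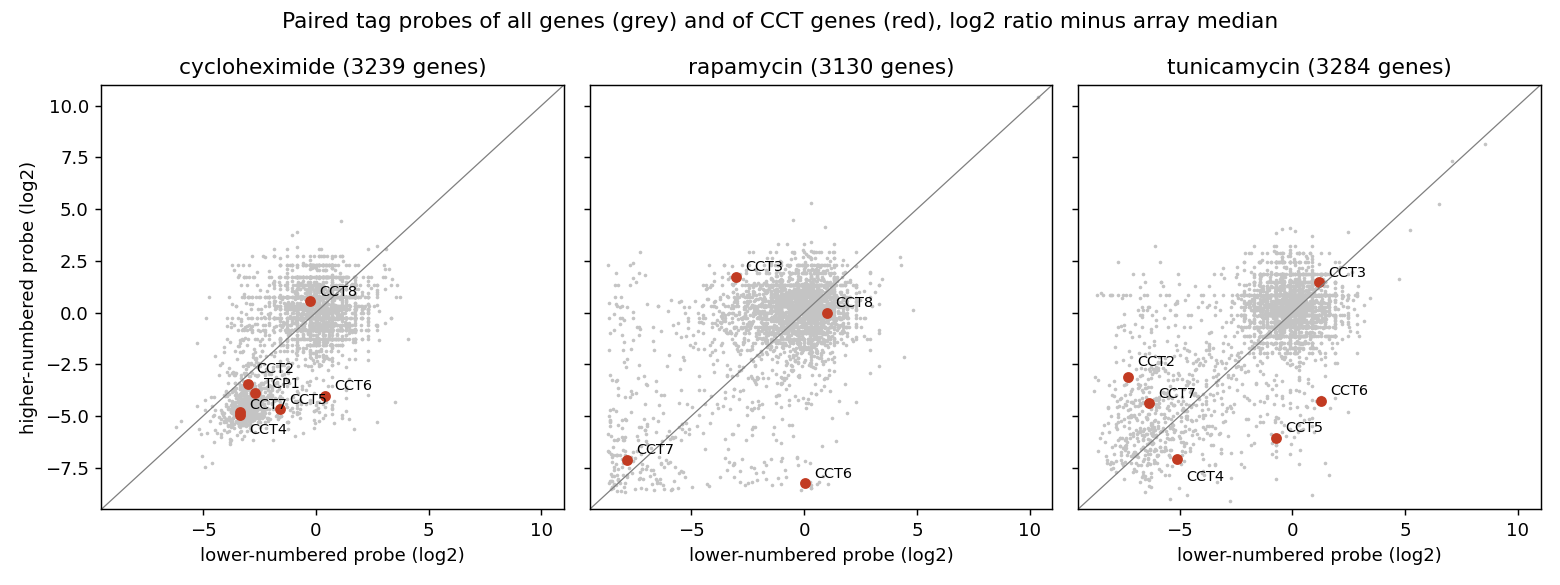
Lower-numbered probe (horizontal) against higher-numbered probe (vertical), both as log2 ratio minus the array median, for every gene with paired probes measured on an array (grey) and for the CCT subunit genes (red, labelled). CCT7 and CCT4 lie with the low cloud near the diagonal wherever both probes were measured, CCT8 lies in the cloud around 0, and CCT6 lies to the lower right on all 3 arrays.

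Genes that work with the chaperonin showed few low tags. Of the 7 cofactor genes described, 0 of 7 were depleted on each array. The prefoldin genes among them are not essential, and such genes are not part of an essential-gene pool. Their values therefore cannot show whether such strains would be depleted. They also had 7 to 12 measured probes each, against at most 2 for a subunit gene. Each probe had to lie at least 2 units low, so the rule was stricter for the prefoldin genes. The prefoldin genes PAC10, GIM3, GIM4, GIM5, YKE2 and PFD1, whose loss yeast survives, had medians with PLP2 of 0.41, -0.61 and 0.06 under cycloheximide, rapamycin and tunicamycin. GIM4 (YEL003W) was the lowest of them each time, at -1.37 ± 2.22 (n = 11), -1.93 ± 2.34 (n = 12) and -1.72 ± 1.83 (n = 7). PLP2 (YOR281C) is the essential member, and it had 0.41 ± 1.88, -1.60 ± 0.35 and -0.13 ± 0.00 (n = 2 each).

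Genes of known CCT substrates were mixed. TUB2 (YFL037W), the only beta-tubulin gene of yeast, had -2.46 ± 0.28, -5.09 ± 1.56 and -2.71 ± 1.41 (n = 2 each) under cycloheximide, rapamycin and tunicamycin, and passed the rule under rapamycin. CDC20 (YGL116W), an activator of the anaphase-promoting complex, had -3.30 (n = 1), -5.25 ± 4.15 (n = 2) and -1.69 ± 3.11 (n = 2), and passed it under rapamycin as well. These were the 2 depleted genes among 5 substrate genes with at least 2 measured probes under rapamycin, and 0 of 4 and 0 of 5 were depleted under cycloheximide and tunicamycin. The alpha-tubulin genes stayed near 0, with TUB1 (YML085C) at 0.04 ± 0.43 (n = 2), 1.24 (n = 1) and 0.89 ± 0.81 (n = 2) and TUB3 (YML124C) between -0.07 and 0.78. CDH1 (YGL003C), the other activator of the anaphase-promoting complex, lay between -0.65 and 0.72. ACT1 (YFL039C), the actin gene, was measured only under rapamycin, at 0.66 ± 0.93 (n = 2). CDC55 was not analysed here. The sources used here do not state which substrate genes the pool held, so values near 0 cannot show whether such strains would be depleted. TUB3 and CDH1 had 9 or 10 measured probes, each of which had to lie at least 2 units low. The rule was therefore stricter for them than for genes with 2 probes.

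Other essential chaperones had low medians too, -3.68, -6.50 and -5.51 on the cycloheximide, rapamycin and tunicamycin arrays, with 7 of 9, 0 of 3 and 7 of 10 depleted. CNS1 (YBR155W), an Hsp90 cochaperone, had -4.44 ± 1.52 (n = 2), -8.39 (n = 1) and -7.20 ± 0.97 (n = 2). HSP10 (YOR020C), the cochaperonin of mitochondria, had -3.86 ± 1.42 and -7.16 ± 0.61 (n = 2 each) under cycloheximide and tunicamycin. MGE1 (YOR232W), the nucleotide exchange factor of mitochondrial Hsp70, had -8.40 (n = 1) under rapamycin and -6.68 ± 1.61 (n = 2) under tunicamycin. PDI1 (YCL043C), a disulfide isomerase, was the lowest under cycloheximide at -4.77 (n = 1) but had 0.05 ± 1.68 under rapamycin and 0.84 ± 1.95 under tunicamycin (n = 2 each). CDC37 (YDR168W), a kinase-specific Hsp90 cochaperone, read -6.71 (n = 1) under rapamycin.

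A pair of other essential machines gave the same kind of spread. The 13 essential genes of the proteasome 20S core, also a stack of rings, had medians of -3.37, -5.51 and -4.90, with 8 of 12, 2 of 5 and 8 of 13 depleted under cycloheximide, rapamycin and tunicamycin. Its lowest genes included PUP1 (YOR157C) at -4.55 ± 1.97 under cycloheximide and PUP3 (YER094C) at -7.40 ± 0.20 under tunicamycin (n = 2 each). The 10 essential genes of RNA polymerase II had medians of -2.71, -3.08 and -2.53, with 5 of 10, 2 of 6 and 3 of 10 depleted, and RPB11 (YOL005C) was the lowest under cycloheximide at -4.17 ± 1.07 and under tunicamycin at -6.86 ± 0.15 (n = 2 each). The non-essential amino acid and adenine genes had medians of 0.03, -0.04 and 0.07, and 0 of 30, 0 of 31 and 0 of 25 were depleted. Such genes are not part of an essential-gene pool, so these counts cannot show how selection acts on strains of the pool.

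Genes like CCT3 and CCT8, no more than 1 unit below 0 on each of the 3 arrays, were also present in these lists. They were 2 of the 7 CCT genes measured on all arrays, 1 of 7 other essential chaperones (SSC1, the mitochondrial Hsp70), 1 of 10 proteasome core genes (PRE8) and 1 of 8 RNA polymerase II genes (RPC10), against 24 of 35 non-essential amino acid and adenine genes. With 1 or 2 genes a list, no difference between the lists is read from these counts. The non-essential genes are not part of an essential-gene pool, so their count is no measure of strains that withstand selection.

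**Figure D3:**
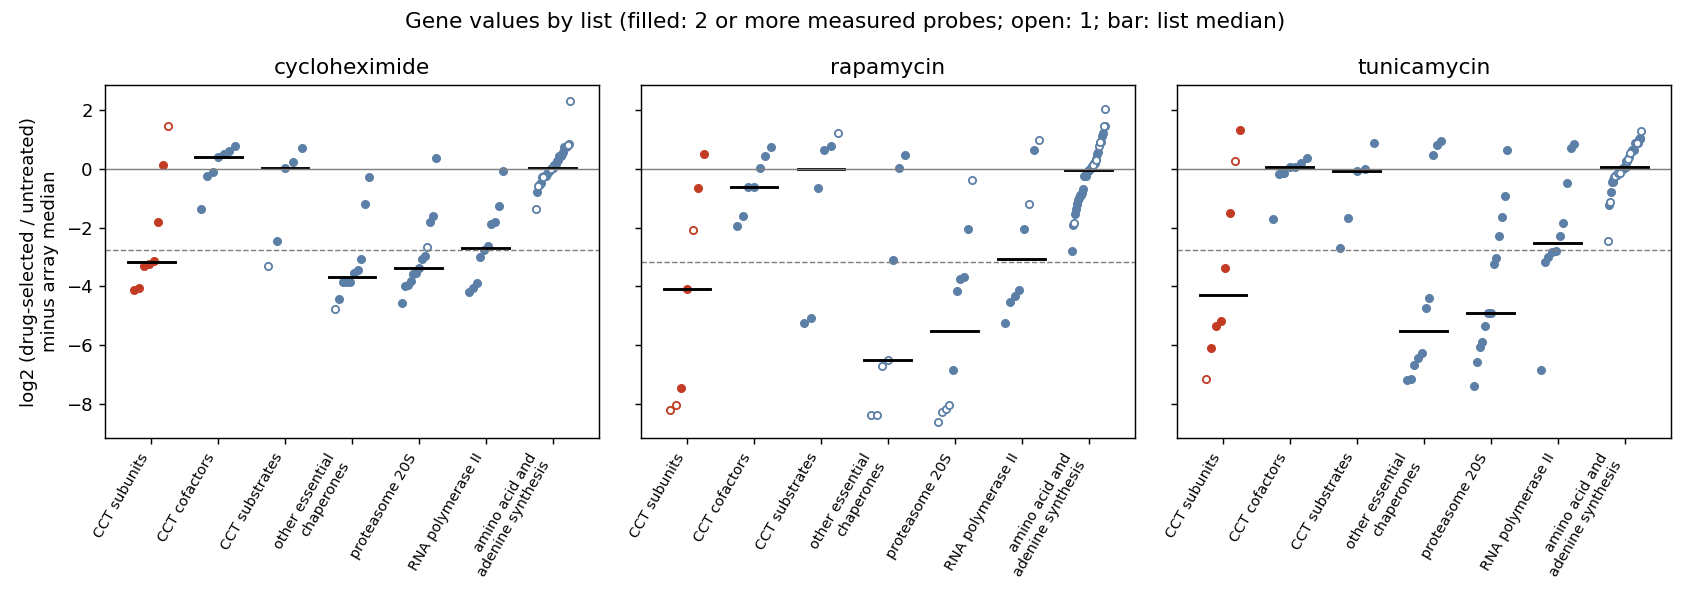
Gene values (log2 ratio minus the array median, vertical axis) of the CCT subunits, their cofactors and substrates, other essential chaperones, the essential proteasome 20S and RNA polymerase II genes and non-essential amino acid and adenine genes on the cycloheximide, rapamycin and tunicamycin arrays. The bar is the median of each list and the dashed line lies 3 spread units below 0. CCT subunits spread from above 0 to the lowest range of each panel, cofactors stay above -2 on all 3 arrays, and open points, with 1 measured probe, make up much of the low range under rapamycin.

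Tags of the genes next to the subunit genes on the chromosome had their own readings. Of the 16 neighbours in the RefSeq gene table, 15 had named probes, and 14, 15 and 14 of them were measured under cycloheximide, rapamycin and tunicamycin, with medians of -0.64, -0.52 and -0.64. The neighbours of CCT7, MDV1 (YJL112W) and GZF3 (YJL110C), ranged from -0.42 to 1.31 while CCT7 was depleted on every array. The neighbours of CCT4, YDL144C and CRD1 (YDL142C), ranged from -2.29 to 0.41. AXL2 (YIL140W) beside CCT2 ranged from -0.86 to 0.74. Genes that are not essential are not part of an essential-gene pool, and the sources used here do not state which neighbours it held. Neighbour values near 0 therefore cannot show whether such strains would be depleted.

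The neighbours with a gene value more than 3 units low on at least 1 array were ARP3, NOP9, SSL2 and GCD6. These genes are known to be needed for normal growth, and whether this bears on their tags was not tested. ARP3 (YJR065C), of the Arp2/3 complex, lies beside CCT5 and had -4.26 under cycloheximide (n = 2), -7.73 under rapamycin (n = 1) and -4.89 under tunicamycin (n = 2), lower than CCT5 on each array. NOP9 (YJL010C), a ribosome assembly factor beside CCT8, had -3.44, -3.67 and -3.20 (n = 2 each), with its shallower probe between -0.91 and -0.05. SSL2 (YIL143C), a TFIIH helicase beside CCT2, had -3.27 under cycloheximide and -3.39 under tunicamycin (n = 2 each), with its shallower probe at -1.26 and -0.71, and 0.32 under rapamycin (n = 1). GCD6 (YDR211W), a subunit of the exchange factor eIF2B beside TCP1, had -3.40 under tunicamycin (n = 1) and -1.47 and -1.88 under cycloheximide and rapamycin (n = 2 each). SLY1 (YDR189W), a vesicle fusion factor beside CCT6 that is also essential, had -1.51, -3.04 and -2.25 (n = 2 each). It and the other measured neighbours did not lie 3 units low on any array. Around CCT3, TPH3 and MAD3 lay between -0.52 and 0.44 on the 3 arrays.

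**Figure D4:**
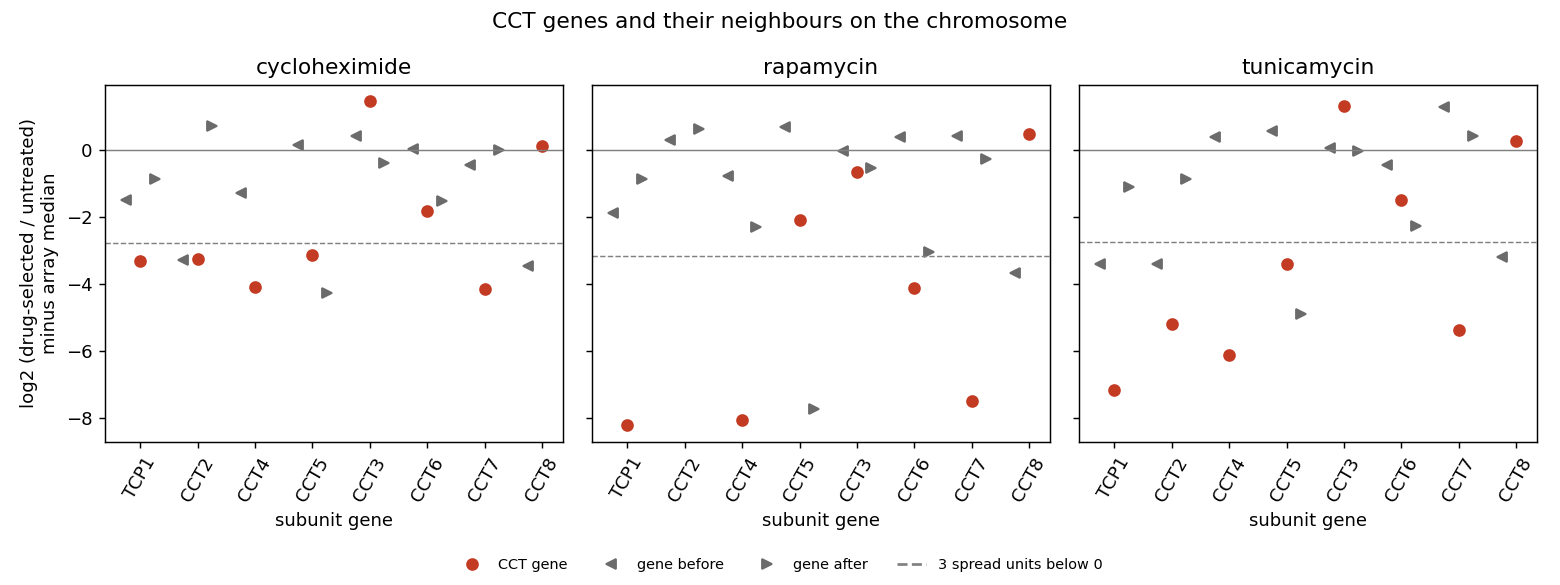
Gene values (log2 ratio minus the array median, vertical axis) of each CCT subunit gene (red circle) and of the genes before and after it on its chromosome (grey triangles) on the cycloheximide, rapamycin and tunicamycin arrays. The dashed line lies 3 spread units below 0. CCT4 and CCT7 lie below all their measured neighbours, whereas CCT5 lies above ARP3 and CCT8 above NOP9 on every array.

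Among the 2540 other genes with at least 2 measured probes on all 3 arrays, ULP2 (YIL031W), a SUMO protease gene, was nearest to the median profile of the subunit genes, at a Euclidean distance of 0.22 over the 3 arrays, with -3.35, -4.19 and -4.17 under cycloheximide, rapamycin and tunicamycin. LSM5 (YER146W), RAP1 (YNL216W), NEO1 (YIL048W) and STU1 (YBL034C) followed at distances of 0.69, 0.85, 0.94 and 0.95. The 7 subunit genes measured on all arrays stood farther off, from 2.22 for CCT5 to 8.07 for CCT3, and CCT2 could not be compared. The rapamycin value of the profile is the mean of CCT6, a level where neither of its probes read. TCP1, CCT4 and CCT5 had 1 measured probe under rapamycin and would not themselves have met the condition of 2 probes. No likeness to the subunit genes is read from these distances.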

How the data were processed

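DNA of tagged yeast strains was measured on 1 two-colour array per drug. The deposited values are log2 ratios, 1 per spot and array. How the scanner output was corrected and normalized is not given in the sources used. Base 2 follows from the values, many of which are log2 quotients of small integers. The deposited array medians of -0.74 (cycloheximide), -1.32 (rapamycin) and -0.87 (tunicamycin) differ from 0, so no median centring had been applied. The direction of the ratio is not stated in the file. The value 16.61, on 739, 196 and 526 spots and far above the next highest values of 4.46, 9.10 and 7.67, was read as a code and left out with the empty spots. 

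A platform annotation gave the probe names, with 18794 probes naming 1 gene each and 3781 unnamed. Symbols, locus tags and neighbours came from the RefSeq gene table of assembly R64 (strain S288C), which held 5321 of the 5325 genes. The array median was subtracted, probes were averaged per gene, and the spread unit was 1.4826 times the median absolute deviation. All genes entered the calls. Calculations used Python 3.11.15 with pandas 2.3.3 and numpy 2.4.6. The call rule was also run on simulated data, in which both probes of a gene were shifted alike and no spot was empty. It is therefore no check of genes with split probes or empty spots. The number of arrays limits the precision.

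The members and lists were chosen with earlier results of these data known. Named are the 8 subunit genes, the listed cofactors and substrates, up to 3 of the lowest genes of other lists per array, both chromosomal neighbours of each subunit gene and the 5 genes nearest to the median profile. SSC1, PRE8 and RPC10 were added after their values were seen. Alternatives covered the code, the centring, quantile normalization, each probe alone, small whole-number ratios, the number of probes, the threshold and the spread unit.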

Additional observations from a re-analysis of the deposited data

How the results depend on the processing

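Of 92 subunit gene values recomputed under the 4 alternatives that keep every probe, 77 moved by less than the SD between the probes of the gene (1 spread unit where 1 probe was measured) and 15 moved by more. Without centring 8 of 23 moved by more, and with quantile normalization 6 of 23. With the code kept it was 1 of 23, and with centring on the non-essential list 0 of 23. The value that moved with the code kept was CCT8 under tunicamycin, from 0.29 to 8.82, as the code then entered its mean. Where the probes of a gene disagree, as in CCT6, the SD is wide and the value passes easily. With 1 of a pair of probes alone the value must stay within that SD, so such settings are no check of it. CCT6 changed sign on all 3 arrays with the lower-numbered probe alone, to 0.43, 0.04 and 1.29 under cycloheximide, rapamycin and tunicamycin. CCT3 under rapamycin read 1.74 with the higher-numbered probe alone. CCT8 changed sign without centring on all 3 arrays, to -0.60, -0.82 and -0.58, and to -0.26 under cycloheximide with the lower-numbered probe alone. CCT7 on all 3 arrays and CCT4 under cycloheximide and tunicamycin stayed depleted under each of 10 alternatives, and so did CCT2 under tunicamycin. Under cycloheximide the count of depleted subunit genes fell from 4 to 2 at 4 spread units, where TCP1 and CCT2 were lost. With the lower-numbered probe alone it was 3 of 8, without TCP1. With the higher-numbered probe alone it was 6 of 7, which added CCT5 and CCT6. Under rapamycin it was 1, and 3 with 1 measured probe sufficing, 3 with the lower-numbered probe alone and 2 with the higher-numbered probe alone. Under tunicamycin it was 3, and 5 with the higher-numbered probe alone, which added CCT5 and CCT6. The lower-numbered probe alone gave medians of -2.15 (cycloheximide), -3.02 (rapamycin) and -2.92 (tunicamycin). Without centring the rapamycin median was -5.43. Leaving out probes equal to a small whole-number ratio gave medians of -5.79 under rapamycin and -5.70 under tunicamycin, over the 6 genes that still had a probe. With integers capped at 10, no reading at least 3 units low can equal such a ratio. That setting removes only shallower readings and is no check of the low values. The remaining counts were within 1.5 times those reported, and the remaining medians moved by less than 1 spread unit. No paired analysis was possible because each drug has 1 array. The number of arrays, the empty rapamycin spots and the unknown channel signals limit all values.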
